A study of Homo sapiens with 14 samples.

Results

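The genes of the integrin receptors and of the laminins, the basement membrane proteins that several of these receptors bind, were followed across 7 groups of cultured cancer cells. Members were chosen by name: the protein-coding genes with a symbol of an integrin alpha subunit, of the integrin beta subunits 1 to 8 or of a laminin alpha, beta or gamma chain. This gave 38 genes of 60683 gene identifiers in the count tables, of which 26 encode integrin subunits (18 alpha and 8 beta) and 12 encode laminin chains. The names were fixed without the measured values, but with earlier results of these data known. The lung cancer line A549, which the study calls p16 null, was sampled untreated and after 10 days with 2 μM palbociclib, which inhibits CDK4 and CDK6. It was also sampled after 10 days with 0.5 μM indisulam, a sulfonamide that marks the splicing factor RBM39 for degradation, after 10 days with both drugs at these doses (the combination), and after 7 days with 0.5 μM PF-06873600, which inhibits CDK4 and CDK6 and also CDK2. The triple-negative breast cancer line SUM159 was sampled untreated and after 7 days with 0.5 μM PF-06873600. Each group holds 2 libraries of polyadenylated RNA, 14 in all. The series describes duplicates as technical, so that p-values here measure the spread between these libraries only, which may be technical. When the untreated cells were harvested is not given in the sources used here. A549 was grown in RPMI medium, and SUM159 in DMEM/F12 medium with insulin and hydrocortisone, so that line and medium cannot be told apart.

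The libraries held 13060374 to 21149256 counts on genes, and 3 counts, the smallest level taken as detectable, equal 0.142 to 0.23 CPM, the counts of a gene per 1000000 counts of its library. CDKN2A, the gene of p16, had 0 counts in all 10 A549 libraries, but it had at most 3 in a SUM159 library and does not separate the lines. AKR1B10, an aldo-keto reductase known to be high in A549, stood at 1554 to 6667 CPM in A549 and 3.57 to 12.5 in SUM159. Of the 3 receptor genes behind the triple-negative label, ESR1 had at most 14 counts in any library and PGR at most 1, while ERBB2 stood at 118 to 130.2 CPM in SUM159 and 109 to 166 in A549. The epithelial genes EPCAM and CDH1 had 269 and 2354 counts in the first untreated A549 library against 14 and 3 in the first untreated SUM159 library. The summed level of 3 genes of dividing cells (MKI67, TOP2A and CCNB1) was lower with treatment, from 456 and 488 CPM in untreated A549 to 84.8 and 87.3 in the combination and 235 and 246 with PF-06873600. In SUM159 it went from 1594 and 1778 to 557 and 553 CPM, and the part of this difference in the values below was not tested. The 2 untreated A549 libraries differed from each other for LAMA5, ITGB4 and LAMB2 by more than the duplicates of the other A549 groups, which is given beside those genes.

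An integrin is a pair of an alpha and a beta subunit, both spanning the cell membrane, that binds a ligand outside the cell and links it to the cytoskeleton. The pairing sets the ligand: the products of ITGA3, ITGA6 and ITGA7 with that of ITGB1, and of ITGA6 with ITGB4, bind laminins. Those of ITGA1, ITGA2, ITGA10 and ITGA11 with ITGB1 bind collagens, and those of ITGA5, ITGA8, ITGAV and ITGA2B with their partners bind the RGD sequence of fibronectin, vitronectin and similar proteins. The integrins of ITGB2 and ITGB7 are best known from leukocytes. A laminin is a trimer of an alpha, a beta and a gamma chain. The LAMA3 and LAMB3 chains are known from the laminin that anchors epithelial cells through the ITGA3 and ITGB1 pair and the ITGA6 and ITGB4 pair, while the LAMB1, LAMB2 and LAMC1 chains enter most other laminins, among them those of the LAMA5 chain.

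In A549 treated with the combination, the laminin chain genes LAMB3 and LAMA3 rose 7.21-fold and 3.16-fold over untreated cells (LAMB3 log2FC 2.85 ± 0.08 SE, adjusted p = 8.89e-13). The collagen receptor gene ITGA11 rose 16.9-fold, and the vitronectin receptor gene ITGB3 rose 29.4-fold from a level under 1 CPM. In SUM159 with PF-06873600, ITGA11 and ITGA7 each rose 10.5-fold, and the leukocyte integrin genes ITGAX and ITGB2 rose from a low level, of which ITGB2 fell in A549 under the same drug. Fold changes, log2 fold changes (log2FC) and p-values come from edgeR's quasi-likelihood test with Benjamini-Hochberg adjustment over all genes tested, and a call is an adjusted p under 0.05. Markers of epithelial and mesenchymal cells also differed in level between these groups, given here without a test. The sum of 4 epithelial markers went from 5174 and 4469 to 9856 and 9419 CPM, through KRT8 (2344 and 1908 to 5109 and 4899) and KRT18 (2652 and 2389 to 4601 and 4380.0), while EPCAM went from 18.3 and 20.6 to 15.1 and 13.9 and CDH1 from 160.0 and 152 to 130.1 and 126. The sum of 3 mesenchymal markers went from 774 and 706 to 1935 and 1895 CPM, with VIM from 701 and 628 to 1792 and 1743, CDH2 from 42.0 and 41.9 to 90.3 and 96.5 and ZEB1 from 30.9 and 35.7 to 52.0 and 56.2. In SUM159 with PF-06873600 the epithelial sum went from 754 and 699 to 428 and 446 CPM and the mesenchymal sum from 4570.0 and 4249 to 3889 and 3885. The part of these shifts in the integrin and laminin values was not tested.

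A filter on low counts left 33 members in the A549 model, 31 in the SUM159 model and 34 in the model of both lines, and 4 members (ITGA2B, ITGA8, ITGA9 and LAMB4) passed in no model. Of the 33 tested with palbociclib alone, 5 were called higher, where 8.30% of all genes tested were, and 3 lower, where 7.40% were. With indisulam, 16 were called higher, where 28.0% of all genes tested were, and 3 lower, where 17.5% were. With the combination, 21 were called higher, where 35.1% of all genes tested were, and 5 lower, where 30.0% were. PF-06873600 in A549 gave calls for 19 members that were higher, against 28.5% of genes tested, and for 8 that were lower, against 27.8%. All of these comparisons share the 2 untreated A549 libraries. The share of calls that were higher with indisulam depended on the scaling, at 61.6% of all genes called and 84.2% of members called by library totals and 50.4% and 75.0% by TMM scaling. In SUM159, of 31 members tested, 28 rose with PF-06873600, against 38.1% of genes tested, and 3 fell (ITGA6, ITGAE and LAMA2), against 35.6%. The median log2 fold change of the tested members was 0.00 with palbociclib, 0.40 with indisulam, 0.93 with the combination, 0.52 with PF-06873600 in A549 and 1.11 in SUM159. In the same order, the medians over all genes tested were -0.01, 0.08, 0.05, -0.01 and 0.02. A member that is near 0 in one group could pass the filter only through the group where it is high, so these counts and medians describe the genes that passed and not all 38, and the p-value of such a member rests on the same selection. In bulk RNA, fewer cells of a kind and less RNA per cell cannot be told apart. The 8 calls with palbociclib became 4 without palbociclib replicate 1, 3 without palbociclib replicate 2, and 2 in a model of the compared groups alone.

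**Figure D1:**
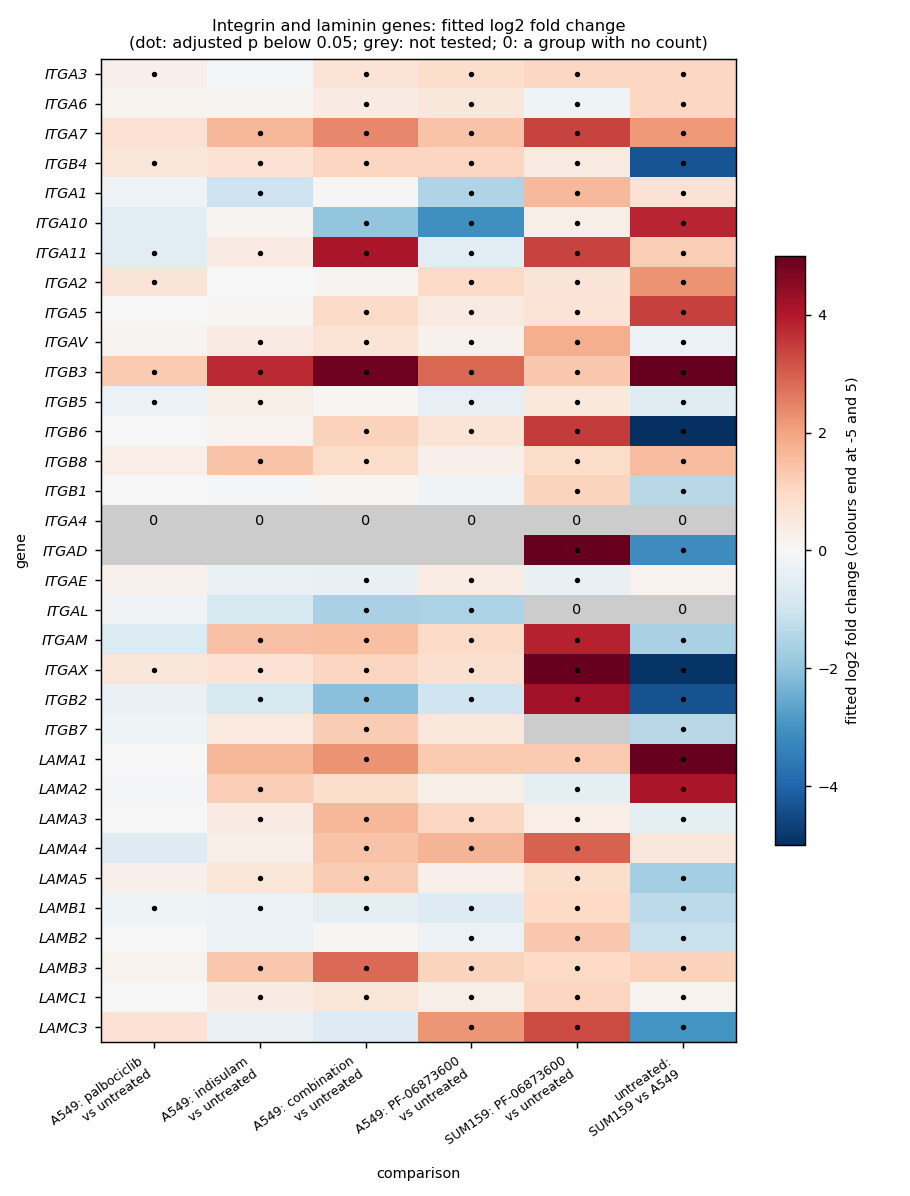
Fitted log2 fold change (colour, from blue for lower to red for higher) of 33 members tested in at least 1 model, 1 row per gene, in 6 comparisons, 1 column each, with 2 libraries per group. Dots mark an adjusted p under 0.05, grey cells were not tested, and a 0 marks a comparison with a group that had no count. ITGB3 (4.88), ITGA11 (4.08) and LAMB3 (2.85) are the deepest red cells shown in the combination column that rest on members at 10 CPM or more.

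The combination was also compared with each single drug. Against palbociclib, 22 of 33 members were higher, where 33.5% of genes tested were, and 7 lower, where 26.9% were. Against indisulam, 18 members were higher, beside 22.0% of genes tested, and 4 lower, beside 23.9%. The interaction term, which is the log2 fold change of the combination minus the sum of those of both single drugs, was above 0 for 9 members, among them ITGA3, ITGA1, ITGA11, ITGA5, ITGB6, LAMA3, LAMA4 and LAMB3, beside 10.7% of genes tested. It was below 0 for 3 (ITGA10, ITGA2 and ITGB2), beside 14.5%. ITGA1 and ITGA2 were not called in the combination itself. The call of ITGA10 in this term (log2FC -1.54 ± 0.52 SE, adjusted p = 0.0423) was lost with DESeq2 (adjusted p = 0.125), without untreated replicate 2 (0.0544), palbociclib replicate 1 (0.182), indisulam replicate 1 (0.174) or combination replicate 2 (0.216), and without either PF-06873600 library (0.0592 and 0.0594).

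Among the 4 laminin receptor genes, all 4 rose with the combination and with PF-06873600 in A549, and 3 of 4 rose with PF-06873600 in SUM159, where 35.1%, 28.5% and 38.1% of all genes tested rose in these 3 comparisons. In untreated A549 the libraries held ITGA3 at 505 and 431 CPM, and with each single drug at 561 and 561 (palbociclib) and 453 and 437 CPM (indisulam). The combination libraries held 747 and 757 CPM and those of PF-06873600 848 and 873. ITGA3 (chr17:50055968-50090481) encodes the alpha subunit that binds the LAMA3 and LAMA5 laminins. All 4 libraries of the combination and PF-06873600 lay above the other 6 A549 libraries (log2FC 0.68 ± 0.07 SE, adjusted p = 4.24e-07 for the combination). SUM159 held more ITGA3, at 976 and 949 CPM untreated and 1931 and 1961 with PF-06873600, without overlap (log2FC 1.02 ± 0.07 SE, adjusted p = 4.97e-09). The rise with PF-06873600 in A549 was of 0.88 on the log2 scale, and its difference from the rise in SUM159 was not called (SUM159 minus A549 log2FC 0.14 ± 0.09 SE, adjusted p = 0.21), although it was without untreated A549 replicate 2 (0.25, adjusted p = 0.00581).

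ITGB4 was measured at 944 and 656 CPM in untreated A549, at 1248 and 1197 CPM after palbociclib and at 1359 and 1294 after indisulam. It was at 1688 and 1699 CPM after both drugs, and at 1676 and 1714 after PF-06873600. This gene (chr17:75721328-75757818) encodes the partner of ITGA6 in the hemidesmosome, the structure that ties keratin filaments to laminin. The 2 untreated libraries differed by more than the pairs of the treated groups, and all 8 treated A549 libraries lay above both (log2FC 1.08 ± 0.11 SE, adjusted p = 8.86e-07 with the combination, log2FC 1.08 ± 0.11 SE, adjusted p = 1.33e-06 with PF-06873600). Against untreated replicate 1 alone (without replicate 2) the combination's log2 fold change was 0.84, and against replicate 2 alone 1.37, both with the same call. SUM159 held far less ITGB4, at 39.6 and 40.7 CPM untreated and 55.7 and 55.1 with PF-06873600 (untreated SUM159 against untreated A549 log2FC -4.32 ± 0.12 SE, adjusted p = 9.39e-17). Its rise there (log2FC 0.47 ± 0.06 SE, adjusted p = 1.11e-05) was smaller than with the same drug in A549 (SUM159 minus A549 log2FC -0.62 ± 0.16 SE, adjusted p = 0.00264, or -0.38 without untreated A549 replicate 2).

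Levels of ITGA6 were 119.6 and 129 CPM in untreated A549, 145 and 136 with palbociclib, and 130.5 and 139 with indisulam. They were 158 and 171 CPM in the combination and 184 and 186 with PF-06873600. The shared alpha subunit of both laminin receptor pairs (ITGA6, chr2:172427354-172506459) moved little (log2FC 0.41 ± 0.07 SE, adjusted p = 7.49e-05 for the combination). In SUM159 ITGA6 was at 254 and 251 CPM untreated and 220.0 and 214 with PF-06873600, lower with the drug (log2FC -0.22 ± 0.05 SE, adjusted p = 0.00188). It rose with the same drug in A549 (log2FC 0.57 ± 0.07 SE, adjusted p = 3.7e-06), and the difference between the lines was called (SUM159 minus A549 log2FC -0.79 ± 0.09 SE, adjusted p = 2.01e-07). The fall in SUM159 lost its call without PF-06873600 replicate 2 (log2 fold change -0.20, adjusted p = 0.0721).

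ITGA7 stood at 1.97 and 0.733 CPM in untreated A549, 1.93 and 2.62 with palbociclib and 4.98 and 3.50 with indisulam. With the combination it stood at 7.02 and 7.14 CPM, and with PF-06873600 at 3.68 and 3.59. ITGA7 (chr12:55684568-55716404), the laminin receptor subunit of muscle, was a low gene in A549 that rose with indisulam (log2FC 1.64 ± 0.32 SE, adjusted p = 0.00087) and the combination (log2FC 2.39 ± 0.30 SE, adjusted p = 6.18e-06). The 2 untreated libraries stood apart from each other, and the size of the change with indisulam depended on them. The log2 fold change was 2.51 without untreated replicate 1, which lay nearer to the indisulam libraries than replicate 2 did. In SUM159 it stood at 5.79 and 6.33 CPM untreated and 61.0 and 65.7 with PF-06873600, a rise of 10.5-fold (log2FC 3.39 ± 0.09 SE, adjusted p = 3.03e-13). The response in SUM159 exceeded that in A549 (SUM159 minus A549 log2FC 1.96 ± 0.38 SE, adjusted p = 0.000199), but not without untreated A549 replicate 1 (1.09, adjusted p = 0.0738).

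The 4 collagen receptor genes went separate ways in A549, where 1 rose, 1 fell and 2 were not called with the combination, while all 4 rose with PF-06873600 in SUM159. Of all genes tested, 35.1% rose and 30.0% fell with the combination, and 38.1% rose in SUM159. In untreated A549 the libraries held ITGA11 at 5.64 and 5.47 CPM, and with each single drug at 3.71 and 3.84 (palbociclib) and 6.77 and 7.86 CPM (indisulam). The combination libraries held 93.0 and 95.0 CPM and those of PF-06873600 3.29 and 4.27. ITGA11 (chr15:68296532-68432163) encodes a receptor for fibrillar collagens known from fibroblasts. Both combination libraries stood far above the other 8 A549 libraries (log2FC 4.08 ± 0.11 SE, adjusted p = 2.81e-13). Indisulam alone gave a change of 0.40 and palbociclib alone of -0.55 on the log2 scale, so that the interaction term was 4.23 ± 0.19 SE (adjusted p = 3.17e-09). SUM159 held ITGA11 at 12.7 and 13.3 CPM untreated and 136 and 138 with PF-06873600 (log2FC 3.39 ± 0.07 SE, adjusted p = 1.12e-14). PF-06873600 was followed by a lower value in A549 (log2FC -0.54 ± 0.16 SE, adjusted p = 0.01), and the difference between the lines was called (SUM159 minus A549 log2FC 3.93 ± 0.17 SE, adjusted p = 1.06e-12). The smaller calls in A549 were lost when a library was left out. That for indisulam had an adjusted p of 0.222 without indisulam replicate 2 and 0.059 and 0.0962 without untreated replicate 1 and 2. That for palbociclib was at 0.124 and 0.12 without its replicates and at 0.0689 and 0.0536 without the untreated ones, and that for PF-06873600 at 0.114 without its replicate 1.

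ITGA10 was measured at 3.19 and 2.73 CPM in untreated A549, at 2.52 and 1.53 CPM after palbociclib and at 4.15 and 2.38 after indisulam. It was at 0.993 and 0.515 CPM after both drugs, and at 0.306 and 0.371 after PF-06873600. ITGA10 (chr1:145891208-145910111), a collagen receptor subunit of cartilage, was lowest in the combination and PF-06873600 libraries, all under 1 CPM (log2FC -1.98 ± 0.39 SE and log2FC -3.08 ± 0.46 SE). The PF-06873600 libraries held 4 and 6 counts. ITGA10 passed the filter in A549 through groups where it is high, so no p is given for these falls. SUM159 held it at 37.3 and 45.7 CPM untreated and 52.2 and 50.7 with PF-06873600, above every A549 library (log2FC 0.31 ± 0.08 SE, adjusted p = 0.00355 for the drug, and 0.17 without untreated SUM159 replicate 1). Levels of ITGA1 were 8.97 and 11.9 CPM in untreated A549, 10.4 and 8.48 with palbociclib, and 4.56 and 5.62 with indisulam. They were 10.6 and 10.9 CPM in the combination and 3.37 and 3.96 with PF-06873600. ITGA1 (chr5:52787916-52959209) binds the collagen of basement membranes, and it fell with indisulam (log2FC -1.04 ± 0.18 SE, adjusted p = 0.000283) and with PF-06873600 (log2FC -1.50 ± 0.19 SE, adjusted p = 9.29e-06) and was not called with the combination (log2FC 0.05 ± 0.16 SE, adjusted p = 0.816). In SUM159 ITGA1 stood at 16.3 and 18.0 CPM untreated and 53.4 and 51.7 with PF-06873600, a rise (log2FC 1.61 ± 0.08 SE, adjusted p = 1.24e-10). The difference from A549 was 3.12 on the log2 scale (adjusted p = 2.16e-10). PELO, a gene on the same strand within ITGA1, shares 2.7% of its exon bases and had up to 84.2 CPM, and how shared reads were assigned is not given in the sources used here.

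ITGA2 stood at 32.0 and 36.5 CPM in untreated A549, 52.8 and 54.9 with palbociclib and 33.7 and 33.4 with indisulam. With the combination it stood at 37.0 and 38.9 CPM, and with PF-06873600 at 67.4 and 67.1. ITGA2 (chr5:52989340-53094779), the main collagen receptor subunit of epithelial cells and platelets, rose with palbociclib (log2FC 0.65 ± 0.08 SE, adjusted p = 5.1e-05) and PF-06873600 (log2FC 0.97 ± 0.08 SE, adjusted p = 6.79e-08), and the groups that received indisulam stayed near the untreated level. The interaction term was below 0 (log2FC -0.48 ± 0.11 SE, adjusted p = 0.00559). SUM159 libraries held ITGA2 at 153 and 169 CPM untreated and 244 and 255 with PF-06873600 (log2FC 0.63 ± 0.06 SE, adjusted p = 2.11e-07). The 2 drugs that share CDK4 and CDK6 as targets, palbociclib and PF-06873600, were used at different doses and times and were not compared.

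**Figure D2:**
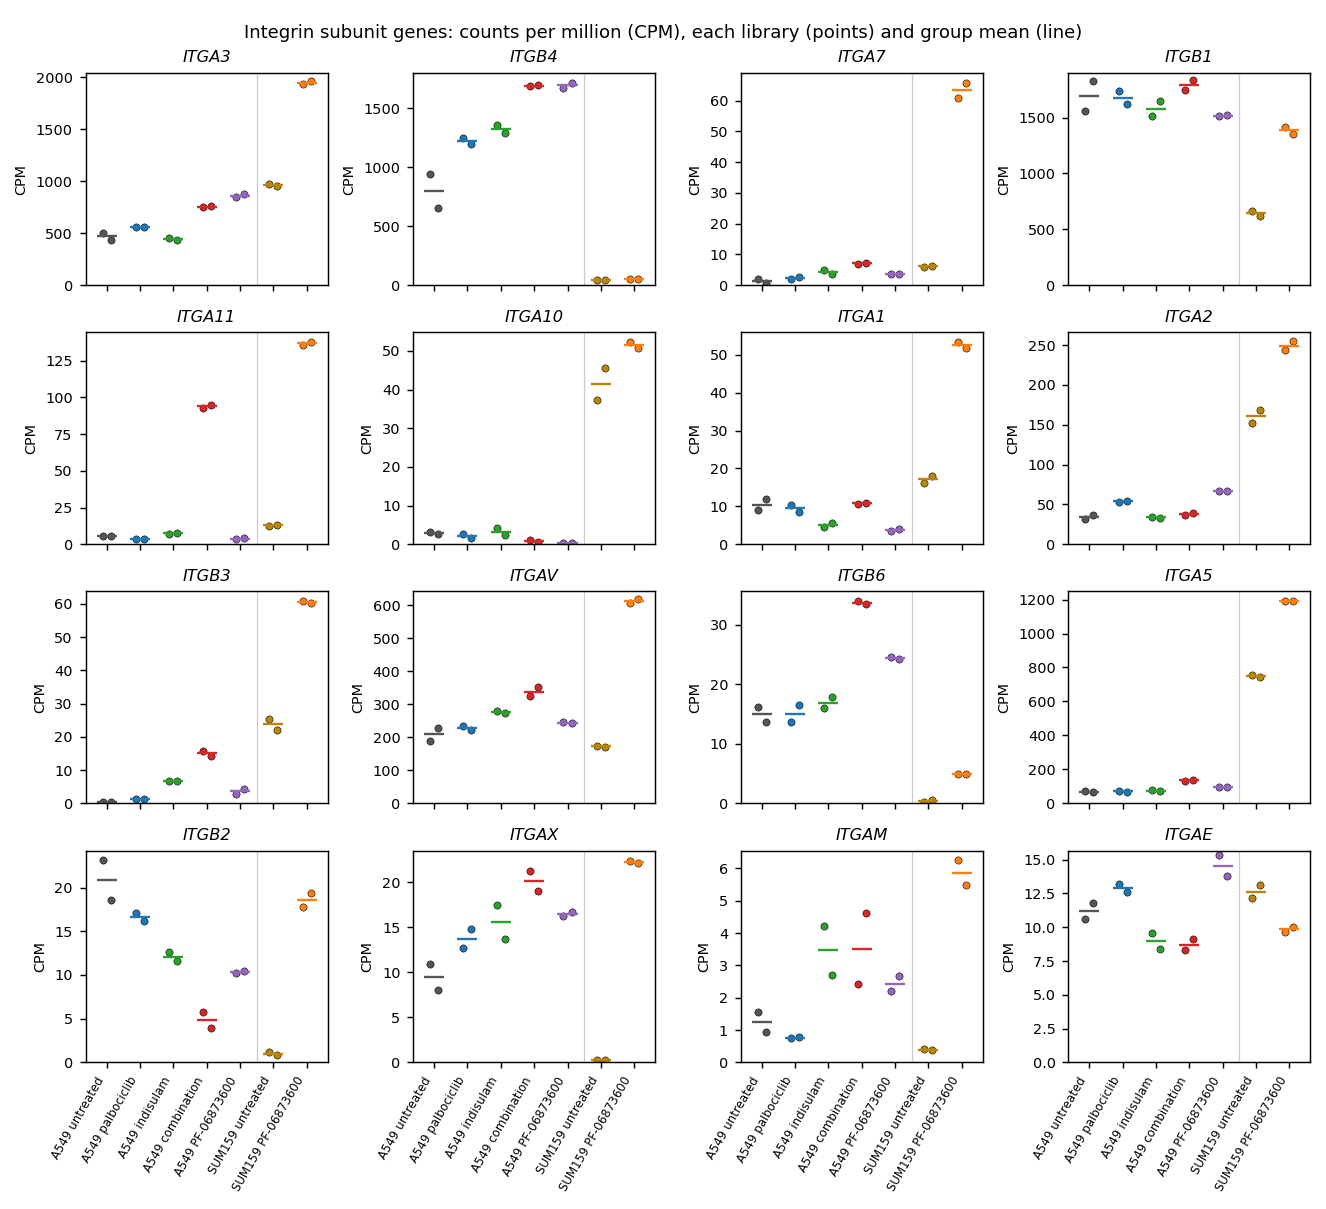
CPM (vertical axis, linear, each panel with its own scale) of 16 integrin subunit genes in the 7 groups, with a point for each library and a line at the group mean. ITGA11 is near 93.0 to 95.0 CPM in the combination libraries and under 8 CPM in the other A549 libraries, and ITGB2 falls in A549 from 23.1 and 18.5 CPM to 5.74 and 3.99 with the combination while it rises in SUM159.

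Of the 8 RGD receptor genes 6 passed the filter. With the combination 5 of the 6 rose, with PF-06873600 in A549 4 rose and 1 (ITGB5) fell, and with PF-06873600 in SUM159 all 6 rose. The shares of all genes tested that rose were 35.1%, 28.5% and 38.1% in the same order, and 27.8% fell with PF-06873600 in A549. ITGB3 in A549 and ITGB6 in SUM159 passed the filter through treated groups alone, so their place in these counts rests on that selection. In untreated A549 the libraries held ITGB3 at 0.476 and 0.533 CPM, and with each single drug at 1.34 and 1.22 (palbociclib) and 6.77 and 6.81 CPM (indisulam). The combination libraries held 15.8 and 14.4 CPM and those of PF-06873600 2.91 and 4.39. ITGB3 (chr17:47253827-47313743) encodes the beta subunit of the vitronectin receptor and of the platelet fibrinogen receptor. The levels were ordered as untreated, palbociclib, indisulam and combination, with no overlap between groups (log2FC 3.73 ± 0.27 SE for indisulam, log2FC 4.88 ± 0.24 SE for the combination). The untreated libraries held 7 and 8 counts of ITGB3. It passed the filter in A549 through treated groups alone, so no p is given for these rises. The interaction term was -0.17 (adjusted p = 0.81). The palbociclib step (log2FC 1.32 ± 0.39 SE, likewise without a p) lost its call when either palbociclib library was left out and when either untreated library was. In SUM159 ITGB3 was at 25.3 and 22.2 CPM untreated and 60.7 and 60.2 with PF-06873600 (log2FC 1.35 ± 0.08 SE, adjusted p = 5.46e-10), and untreated SUM159 stood 46.4-fold above untreated A549. Of 3 platelet markers, GP9 had 0 counts in all 14 libraries, GP1BA at most 10 and PF4 at most 41, and the sum of the 3 was 1.36 and 1.47 CPM in untreated A549 and 1.42 and 1.16 in the combination. A second gene model on the same strand shares 33.2% of ITGB3 exon bases and had 0 counts.

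ITGAV was measured at 190.1 and 229.5 CPM in untreated A549, at 234 and 222 CPM after palbociclib and at 278 and 274 after indisulam. It was at 326 and 351 CPM after both drugs, and at 245 and 243 after PF-06873600. ITGAV (chr2:186590010-186680901), the alpha partner of ITGB3, ITGB5, ITGB6 and ITGB8, was highest with the combination (log2FC 0.69 ± 0.08 SE, adjusted p = 1.64e-06). Its small rise with PF-06873600 (log2FC 0.22 ± 0.08 SE, adjusted p = 0.0239) was not called without untreated replicate 1 (0.09, adjusted p = 0.205) or without either PF-06873600 library (0.102 and 0.0893). SUM159 held ITGAV at 174 and 171 CPM untreated and 606 and 619 with PF-06873600, a rise of 3.55-fold (log2FC 1.83 ± 0.06 SE, adjusted p = 1.35e-12). The response exceeded that in A549 (log2FC 1.61 ± 0.10 SE, adjusted p = 1.04e-10). Levels of ITGB6 were 16.2 and 13.7 CPM in untreated A549, 13.6 and 16.5 with palbociclib, and 15.96 and 17.8 with indisulam. They were 33.9 and 33.5 CPM in the combination and 24.6 and 24.2 with PF-06873600. ITGB6 (chr2:160099667-160200313) encodes the epithelial partner that activates latent TGF-beta, and it rose with the combination (log2FC 1.17 ± 0.11 SE, adjusted p = 2.71e-07), in which both libraries lay above all others of A549. In SUM159 it went from 0.302 and 0.564 CPM (5 and 9 counts) to 4.91 and 4.96 (log2FC 3.50 ± 0.30 SE). ITGB6 passed the filter in SUM159 through the treated group alone, so no p is given for this rise. An unnamed noncoding gene on the same strand shares 16.7% of ITGB6 exon bases and had up to 4.04 CPM.

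ITGA5 stood at 73.5 and 66.0 CPM in untreated A549, 71.1 and 68.7 with palbociclib and 76.99 and 70.2 with indisulam. With the combination it stood at 134 and 136 CPM, and with PF-06873600 at 94.9 and 96.3. ITGA5 (chr12:54395261-54419266), the fibronectin receptor subunit, was not called with palbociclib (0.00) or indisulam (0.08), and rose with the combination (log2FC 0.95 ± 0.07 SE, adjusted p = 1.55e-08) and PF-06873600 (log2FC 0.46 ± 0.07 SE, adjusted p = 5.76e-05). SUM159 had far more ITGA5, at 755 and 743 CPM untreated and 1191 and 1189 with PF-06873600 (log2FC 0.67 ± 0.06 SE, adjusted p = 2.36e-07). In untreated A549 the libraries held ITGB8 at 3.33 and 5.73 CPM, and with each single drug at 4.97 and 6.35 (palbociclib) and 12.3 and 11.9 CPM (indisulam). The combination libraries held 7.23 and 9.98 CPM and those of PF-06873600 4.67 and 6.18. ITGB8 (chr7:20330702-20415754), another beta partner that activates latent TGF-beta, was highest with indisulam (log2FC 1.41 ± 0.22 SE, adjusted p = 0.000141). Its rise with the combination (log2FC 0.93 ± 0.23 SE, adjusted p = 0.00284) was not called without combination replicate 2 (adjusted p = 0.0613) and was 0.59 without untreated replicate 1. In SUM159 ITGB8 rose from 12.9 and 13.3 to 24.3 and 24.7 CPM (log2FC 0.90 ± 0.09 SE, adjusted p = 5.35e-07). ITGB5 (chr3:124761948-124901418) had group means between 193.7 and 368 CPM and no log2 fold change as large as 1 in any comparison. It fell with palbociclib (log2FC -0.31 ± 0.06 SE, adjusted p = 0.00258) and PF-06873600 (log2FC -0.43 ± 0.06 SE, adjusted p = 2.39e-05) in A549. It rose with indisulam (log2FC 0.31 ± 0.06 SE, adjusted p = 0.000639) and with PF-06873600 in SUM159 (log2FC 0.54 ± 0.06 SE, adjusted p = 4.88e-07).

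ITGB1, the beta subunit that many alpha subunits share, was not called by the edgeR test of all A549 groups in any comparison between them. ITGB1 was measured at 1559 and 1826 CPM in untreated A549, at 1735 and 1622 CPM after palbociclib and at 1509 and 1644 after indisulam. It was at 1745 and 1835 CPM after both drugs, and at 1516 and 1519 after PF-06873600. The libraries of palbociclib, indisulam and the combination overlapped those of untreated cells, while both PF-06873600 libraries lay below them and both combination libraries above those of indisulam. The log2 fold changes against untreated cells were -0.01, -0.10, 0.08 and -0.16 for palbociclib, indisulam, the combination and PF-06873600. The combination was called higher than untreated without untreated replicate 2 (0.20, adjusted p = 0.0069), and indisulam and PF-06873600 lower without untreated replicate 1 (-0.21 and -0.27). Without the low-count filter PF-06873600 was called lower (-0.16, adjusted p = 0.0103). The combination against indisulam (log2FC 0.18 ± 0.07 SE, adjusted p = 0.0513) was called higher with DESeq2 (adjusted p = 0.0249), without the low-count filter (0.00268), with the replicate block (0.0494) and in the model of these groups alone (0.00632). It was also called without untreated replicate 1 or 2 (0.00342 and 0.00355) and without indisulam replicate 2 (0.0472). The interaction term was called without untreated replicate 1 (0.30, adjusted p = 0.00484). SUM159 held ITGB1 (chr10:32887273-33005792) at 665 and 622 CPM untreated and 1416 and 1354 with PF-06873600, a rise of 2.15-fold (log2FC 1.11 ± 0.07 SE, adjusted p = 1.68e-09). The difference between the lines in this response was 1.26 on the log2 scale (adjusted p = 3.91e-09).

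ITGA4 (chr2:181457202-181538940), an alpha subunit of lymphocytes and of neural crest cells, had 0 counts in both untreated A549 libraries and in all 4 SUM159 libraries. It had 4 and 0 counts with palbociclib, 9 and 4 with indisulam, 8 and 19 with the combination and 21 and 31 with PF-06873600. Against a floor of 3 counts in each untreated library, ITGA4 was at least 2.19-fold higher with indisulam, at least 4.43-fold higher with the combination and at least 8.73-fold higher with PF-06873600. It passed the filter through the groups where it is high, so no p is given. CERKL, on the other strand, shares 26.4% of its exon bases and had up to 6.19 CPM. ITGA9 had at most 11 counts and passed no filter.

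Among the 7 leukocyte integrin genes, ITGB2 went opposite ways in the 2 lines. With PF-06873600 in SUM159, 5 passed the filter, of which 4 rose and 1 (ITGAE) fell, whereas in A549, of 6 tested, 3 rose (ITGAX, ITGAM and ITGAE) and 2 fell (ITGB2 and ITGAL). Of all genes tested, 38.1% rose and 35.6% fell in SUM159 and 28.5% and 27.8% in A549. The 4 that rose in SUM159 include ITGAX, ITGAM and ITGAD, which passed the filter there through the treated group alone. Their place in this count rests on that selection and is no result about the leukocyte members. Levels of ITGAX were 10.9 and 8.0 CPM in untreated A549, 12.7 and 14.8 with palbociclib, and 17.4 and 13.7 with indisulam. They were 21.2 and 19.0 CPM in the combination and 16.2 and 16.6 with PF-06873600. ITGAX (chr16:31355134-31382999) encodes CD11c, an alpha partner of ITGB2 known from dendritic cells and macrophages, and it rose in each treated A549 group (log2FC 1.09 ± 0.15 SE, adjusted p = 1.74e-05 with the combination). Its palbociclib call (log2FC 0.55 ± 0.16 SE, adjusted p = 0.0295) was lost without untreated replicate 2 (0.157), without palbociclib replicate 2 (0.219) and in the model of these groups alone (0.111). In SUM159 it went from 0.302 and 0.313 CPM (5 and 5 counts) to 22.4 and 22.1 CPM (383 and 468 counts), a 70.8-fold rise (log2FC 6.15 ± 0.21 SE). ITGAX passed the filter in SUM159 through the treated group alone, so no p is given for this rise. ITGB2 stood at 23.1 and 18.5 CPM in untreated A549, 17.1 and 16.2 with palbociclib and 12.6 and 11.6 with indisulam. With the combination it stood at 5.74 and 3.99 CPM, and with PF-06873600 at 10.2 and 10.5. ITGB2 (chr21:44885953-44931989), the common beta subunit of CD11a to CD11d, fell in A549 (log2FC -2.10 ± 0.16 SE, adjusted p = 2.79e-08 with the combination, log2FC -1.01 ± 0.14 SE, adjusted p = 2.69e-05 with PF-06873600). In SUM159 it rose from 1.15 and 0.877 to 17.8 and 19.3 CPM (log2FC 4.19 ± 0.18 SE, adjusted p = 3.09e-11). On the log2 scale the difference between the lines was 5.19 for ITGB2 (adjusted p = 3.2e-12) and 5.34 for ITGAX, the latter without a p for the reason given above. The antisense gene ITGB2-AS1 shares 4.2% of ITGB2 exon bases and had up to 10.02 CPM.

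The other leukocyte members were low. ITGAM, which encodes CD11b of myeloid cells, went from 7 and 6 counts in untreated SUM159 to 107 and 116 with PF-06873600 (log2FC 3.85 ± 0.29 SE). It passed the filter in SUM159 through the treated group alone, so no p is given for this rise. ITGAD, a further partner of ITGB2, went from 0 and 1 to 36 and 42 counts there, and passed the filter through the treated group alone. ITGAL, which encodes CD11a, had 0 and 0 counts untreated and 9 and 15 treated and was at least 3.35-fold higher against the floor of 3 counts per library, without a test. In A549, ITGAM stood at 1.56 and 0.933 CPM untreated and 2.41 and 4.63 with the combination (log2FC 1.51 ± 0.36 SE, adjusted p = 0.002, but 0.95 and adjusted p = 0.0627 without combination replicate 2). Its rise with PF-06873600 in A549 (log2FC 0.98 ± 0.39 SE, adjusted p = 0.0437) was lost with the replicate block (adjusted p = 0.0542), with DESeq2 (0.084), without untreated replicate 2 (0.216) and without either PF-06873600 library (0.0688 and 0.201). ITGAL fell in A549 from 11 and 17 counts untreated to 3 and 6 with PF-06873600 (log2FC -1.59 ± 0.47 SE). It passed the filter through groups where it is high, so no p is given. Its call was lost with DESeq2, without untreated replicate 2 and without PF-06873600 replicate 1. ITGAE, the alpha subunit of mucosal T cells, shares 6.5% of its exon bases with HASPIN on the other strand, which had up to 29.2 CPM. ITGAE ranged from 8.72 to 14.6 CPM over the group means. Its fall with PF-06873600 in SUM159 (log2FC -0.36 ± 0.12 SE, adjusted p = 0.0123) was not called without PF-06873600 replicate 1 (adjusted p = 0.0734). Its rise in A549 (log2FC 0.37 ± 0.12 SE, adjusted p = 0.0158) was not called without untreated replicate 1 (0.0784) or PF-06873600 replicate 1 (0.119). ITGB7, whose exon bases are shared to 42.3% with ZNF740 on the other strand, had at most 32 counts and ITGAL at most 17. Of 4 leukocyte markers, the T cell gene CD3E had 0 counts in all 14 libraries. PTPRC, the common leukocyte antigen, had at most 9 counts in A549 and 155 and 158 in untreated SUM159 against 348 and 379 with PF-06873600, and CD14 went there from 13 and 14 to 56 and 82 counts. The sum of the 4 ranged from 4.20 to 12.03 CPM in A549 and was 10.1 and 10.8 CPM in untreated and 23.6 and 21.8 in treated SUM159. Of 3 endothelial markers PECAM1 went from 181 and 184 to 436 and 584 counts in SUM159, CDH5 from 0 and 0 to 16 and 20 and VWF from 2 and 2 to 8 and 9. The part of these markers in the integrin values was not tested.

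Of the 12 laminin chain genes 11 passed the filter in each line. With the combination 7 rose and 1 (LAMB1) fell, with PF-06873600 in A549 6 rose and 2 (LAMB1 and LAMB2) fell, and with PF-06873600 in SUM159 10 rose and 1 (LAMA2) fell. In the same order, 35.1%, 28.5% and 38.1% of all genes tested rose and 30.0%, 27.8% and 35.6% fell. LAMA1 in A549 and LAMC3 in SUM159 passed the filter through treated groups alone, so their place in these counts rests on that selection. The fall of LAMB2 was not called with DESeq2 (adjusted p = 0.149), in the model of the compared groups alone (0.074) or without untreated replicate 1 (0.533). In untreated A549 the libraries held LAMA3 at 59.3 and 57.3 CPM, and with each single drug at 63.0 and 53.3 (palbociclib) and 79.8 and 74.1 CPM (indisulam). The combination libraries held 185 and 184 CPM and those of PF-06873600 119 and 118. LAMA3 (chr18:23689453-23956222), an alpha chain of epithelial basement membranes, was highest with the combination (log2FC 1.66 ± 0.07 SE, adjusted p = 7.74e-11) and next with PF-06873600 (log2FC 1.02 ± 0.07 SE, adjusted p = 3.51e-08), with no overlap with any other A549 group. Palbociclib alone gave -0.01 and indisulam 0.40, and the interaction term was 1.27 (adjusted p = 7.37e-07). In SUM159 LAMA3 was at 36.6 and 47.9 CPM untreated and 52.3 and 54.4 with PF-06873600, a small rise (log2FC 0.34 ± 0.10 SE, adjusted p = 0.00495) that was not called without untreated SUM159 replicate 1 (0.16, adjusted p = 0.0514), and stood at 0.54 without replicate 2. The rise was smaller than in A549 (SUM159 minus A549 log2FC -0.68 ± 0.13 SE, adjusted p = 0.000237).

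LAMA5 was measured at 453 and 237 CPM in untreated A549, at 411 and 402 CPM after palbociclib and at 548 and 494 after indisulam. It was at 835 and 829 CPM after both drugs, and at 403 and 416 after PF-06873600. LAMA5 (chr20:62307955-62367312), the alpha chain of most adult basement membranes, differed between the 2 untreated libraries by more than between untreated and palbociclib libraries. The combination libraries lay above all others (log2FC 1.27 ± 0.18 SE, adjusted p = 2.67e-05), and this call held when either untreated library was left out, with log2 fold changes of 0.88 without replicate 2 and 1.81 without replicate 1. The PF-06873600 value in A549 (log2FC 0.25 ± 0.18 SE, adjusted p = 0.264) had no settled direction, at -0.14 (adjusted p = 0.0467) without untreated replicate 2 and 0.79 (adjusted p = 2.53e-09) without replicate 1. Indisulam gave a rise (log2FC 0.60 ± 0.18 SE, adjusted p = 0.0158) that was not called without indisulam replicate 1 (adjusted p = 0.0939) and went from 0.20 without untreated replicate 2 to 1.14 without replicate 1. In SUM159 LAMA5 rose from 91.7 and 123 to 180.2 and 216 CPM (log2FC 0.89 ± 0.11 SE, adjusted p = 2.37e-06).

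The remaining alpha chains were low in A549. Levels of LAMA4 were 1.495 and 1.33 CPM in untreated A549, 0.965 and 0.854 with palbociclib, and 1.94 and 1.59 with indisulam. They were 4.25 and 3.48 CPM in the combination and 5.13 and 4.14 with PF-06873600. LAMA4 (chr6:112107931-112254939), the alpha chain of vessel walls and mesenchymal cells, rose with the combination (log2FC 1.44 ± 0.24 SE, adjusted p = 0.000116) and PF-06873600 (log2FC 1.70 ± 0.24 SE, adjusted p = 2.68e-05). SUM159 held LAMA4 at 2.41 and 1.82 CPM untreated and 15.7 and 16.9 with PF-06873600 (log2FC 2.94 ± 0.16 SE, adjusted p = 4.65e-10). LAMA1 (chr18:6941742-7117797), the chain of the early embryo, had group means under 1 CPM in A549, where its libraries were at 0 and 0.267 CPM untreated, 0.0742 and 0.183 with palbociclib, 0.691 and 0.198 with indisulam, 0.496 and 0.837 with the combination and 0.306 and 0.371 with PF-06873600. In SUM159 LAMA1 rose from 10.5 and 14.7 to 30.7 and 32.1 CPM (log2FC 1.32 ± 0.12 SE, adjusted p = 1.15e-07). In A549 LAMA1 passed the filter only through libraries of indisulam and the combination, so no p is given there. Its log2 fold change with the combination was 2.25 ± 0.83 SE, and 1.31 without untreated replicate 1. The combination call was lost without that library or without combination replicate 2. LAMA2, the muscle chain, had group means of at most 8.01 CPM and fell with PF-06873600 in SUM159 (log2FC -0.49 ± 0.15 SE, adjusted p = 0.00798), though not without PF-06873600 replicate 1 (adjusted p = 0.0764).

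The beta chains moved apart in A549. LAMB3 stood at 95.2 and 76.6 CPM in untreated A549, 100.3 and 93.7 with palbociclib and 221 and 214 with indisulam. With the combination it stood at 628 and 609 CPM, and with PF-06873600 at 185 and 185. LAMB3 (chr1:209614870-209652425), a partner chain of LAMA3, rose with indisulam (log2FC 1.34 ± 0.08 SE, adjusted p = 9.5e-09), with PF-06873600 (log2FC 1.11 ± 0.08 SE, adjusted p = 3.55e-08) and 7.21-fold with the combination (log2FC 2.85 ± 0.08 SE, adjusted p = 8.89e-13), where both libraries lay above all others. The interaction term was 1.33 ± 0.11 SE (adjusted p = 8.27e-07). SUM159 libraries held LAMB3 at 195 and 190.3 CPM untreated and 376 and 390.1 with PF-06873600 (log2FC 0.99 ± 0.06 SE, adjusted p = 5.44e-10). This response was not called different from that in A549 (SUM159 minus A549 log2FC -0.11 ± 0.10 SE, adjusted p = 0.383), although it was without untreated A549 replicate 1 (-0.28, adjusted p = 0.00571).

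In untreated A549 the libraries held LAMB1 at 762 and 746 CPM, and with each single drug at 667 and 644 (palbociclib) and 634 and 603 CPM (indisulam). The combination libraries held 560.2 and 559 CPM and those of PF-06873600 487 and 478. Each treated group of LAMB1 (chr7:107923799-108003213), the beta chain of most laminins, lay below the untreated libraries, and it fell by 0.43 on the log2 scale with the combination (SE 0.05, adjusted p = 4.35e-06) and by 0.64 with PF-06873600 (SE 0.05, adjusted p = 1.01e-07). In SUM159 LAMB1 went the other way, from 293 and 308 to 599 and 602 CPM (log2FC 1.00 ± 0.06 SE, adjusted p = 9.43e-10). The difference between the lines was called (SUM159 minus A549 log2FC 1.64 ± 0.07 SE, adjusted p = 1.73e-12). LAMB2 was measured at 299 and 219.7 CPM in untreated A549, at 249.9 and 255 CPM after palbociclib and at 234 and 190.0 after indisulam. It was at 264 and 276 CPM after both drugs, and at 207 and 213 after PF-06873600. LAMB2 (chr3:49121114-49133118), the beta chain of kidney filter and synapse, was not called with the combination (log2FC 0.06 ± 0.11 SE, adjusted p = 0.669), but it was without untreated replicate 1 (0.30, adjusted p = 0.00373). In SUM159 LAMB2 rose from 105 and 137 to 299.8 and 317 CPM (log2FC 1.35 ± 0.09 SE, adjusted p = 3.04e-09).

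Promoters are shown for LAMA3 and LAMB3, which rose together, and for LAMB1, the beta chain that fell in A549. That of ITGA5, the only other member with a match of the first motif below, is also shown. Of the 38 members 26 matched a RefSeq promoter (GRCh38.p14, 250 bases before to 50 after a start site), with 33 start sites in all. The motif of the AP-1 factors was searched as TGANTCA on both strands (the pattern reads alike on both). It is in 7.71% of 35116 promoters of this length and in 3 of the 33 of members, near that share. These are of LAMA3 (2 matches), ITGA5 (1) and 1 of 3 LAMB3 start sites (1), and each is printed. The other LAMB3 start sites are not printed. LAMC1 and LAMA5, which also rose with the combination, have promoters without a match. Capitals mark the matches, lower case the rest, each 5′ to 3′ on the strand of the gene, and the LAMA3 and LAMB3 start sites shown lie inside the annotated genes.
LAMA3, chr18:23872770-23873069, plus strand: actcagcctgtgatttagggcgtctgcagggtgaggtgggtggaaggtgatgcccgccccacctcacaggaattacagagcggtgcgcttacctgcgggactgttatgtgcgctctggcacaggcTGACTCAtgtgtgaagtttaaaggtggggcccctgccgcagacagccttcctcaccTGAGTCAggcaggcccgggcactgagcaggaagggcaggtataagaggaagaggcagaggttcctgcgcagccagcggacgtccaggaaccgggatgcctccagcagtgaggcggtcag
LAMB3, chr1:209651325-209651624, minus strand: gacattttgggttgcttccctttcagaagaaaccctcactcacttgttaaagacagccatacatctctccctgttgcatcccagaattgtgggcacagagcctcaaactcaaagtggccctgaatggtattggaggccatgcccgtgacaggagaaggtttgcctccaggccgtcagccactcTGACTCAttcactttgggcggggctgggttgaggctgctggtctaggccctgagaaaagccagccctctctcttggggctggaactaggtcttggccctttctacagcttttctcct
ITGA5, chr12:54419217-54419516, minus strand: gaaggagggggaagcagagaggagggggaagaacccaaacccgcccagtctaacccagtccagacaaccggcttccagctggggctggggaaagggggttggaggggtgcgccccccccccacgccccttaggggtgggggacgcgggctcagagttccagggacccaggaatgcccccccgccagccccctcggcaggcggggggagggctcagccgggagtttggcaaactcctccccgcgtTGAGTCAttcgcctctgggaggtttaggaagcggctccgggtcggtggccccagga
LAMB1, chr7:108003112-108003411, minus strand: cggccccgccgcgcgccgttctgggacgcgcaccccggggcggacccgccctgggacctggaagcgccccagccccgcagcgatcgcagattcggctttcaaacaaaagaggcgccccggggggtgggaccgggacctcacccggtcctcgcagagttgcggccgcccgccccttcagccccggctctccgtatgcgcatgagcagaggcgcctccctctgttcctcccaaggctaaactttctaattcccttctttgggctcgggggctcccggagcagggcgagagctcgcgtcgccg
The matches begin 125 and 69 bases before the start site in LAMA3, 67 before in LAMB3 and 6 before in ITGA5, and none is in the LAMB1 window. GGAATG (a TEAD site) was found in 4 of the 33 member promoters, of ITGA10, LAMA2, ITGB1 and ITGA5, beside 14% of all promoters. GGGCGG (an SP1 site) was found in 19 of the 33, beside 45.0%, and these belong to 14 of the 26 members, LAMA3, LAMB3 and LAMB1 included. TATAAA was found in 2 of the 33, of ITGA6 and ITGB1, beside 11.5%. No match of these 3 overlaps a TGANTCA match in the windows printed. A match describes letters in the window and was not tested for binding.

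Levels of LAMC1 were 249.9 and 264 CPM in untreated A549, 276 and 229 with palbociclib, and 342 and 338 with indisulam. They were 388 and 399 CPM in the combination and 309 and 323 with PF-06873600. LAMC1 (chr1:183023420-183145592), the gamma chain of most laminins, was, among A549 groups, highest in the combination (log2FC 0.62 ± 0.07 SE, adjusted p = 3.79e-06). In SUM159 LAMC1 was at 282 and 299 CPM untreated and 611 and 615 with PF-06873600 (log2FC 1.08 ± 0.06 SE, adjusted p = 4.49e-10). LAMC3 had at most 96 counts and rose with PF-06873600 in A549 from 0.816 and 1.73 to 5.97 and 5.94 CPM (log2FC 2.21 ± 0.27 SE, adjusted p = 7e-06), and from 2 and 3 to 21 and 38 counts in SUM159.

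**Figure D3:**
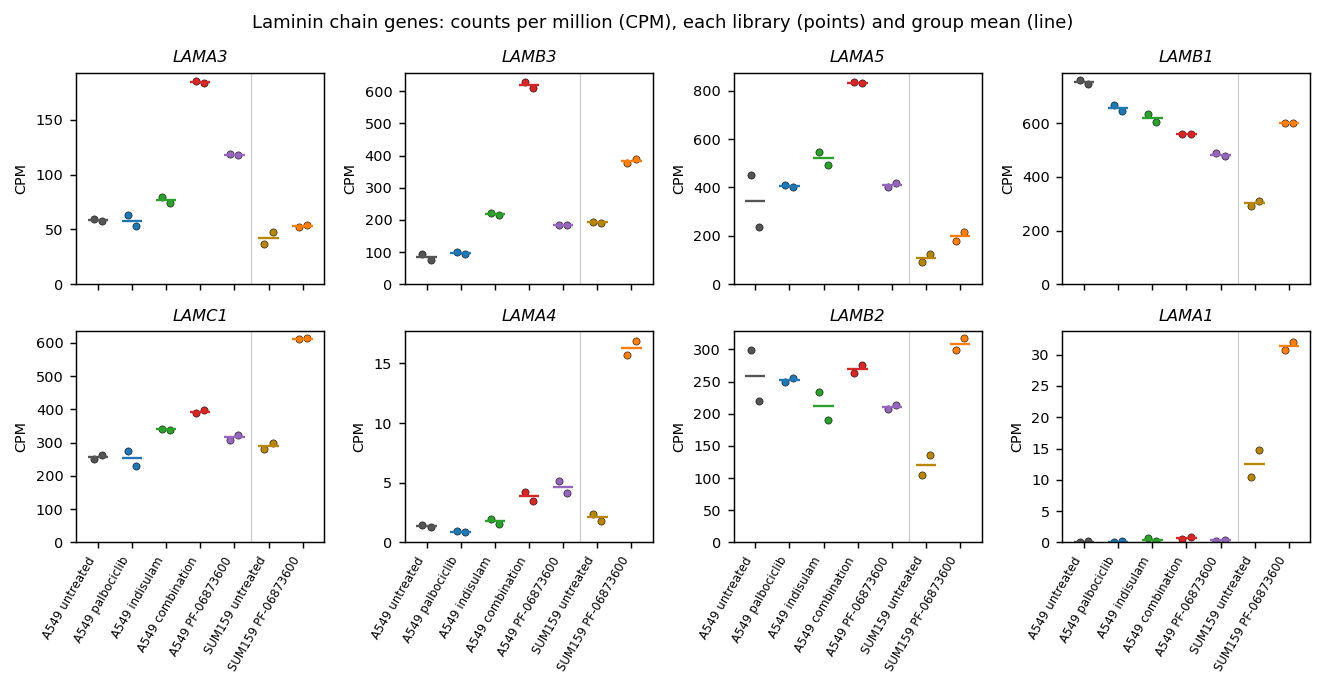
CPM (vertical axis, linear, each panel with its own scale) of 8 laminin chain genes in the 7 groups, with a point for each library and a line at the group mean. LAMA3 and LAMB3 are highest among A549 groups in the combination, at 185 and 184 and at 628 and 609 CPM, while LAMB1 falls from 762 and 746 to 560.2 and 559 CPM.

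Dividing CPM by the length of the MANE Select transcript (CPM per kb) allows levels of different genes to be set side by side. On this scale LAMB3 made up 11.2 and 10.1% of the summed beta chain level in the untreated A549 libraries, 13.4 and 12.8% with palbociclib, 26.4 and 27.6% with indisulam, 51.8 and 50.7% with the combination and 27.3 and 27.4% with PF-06873600. The LAMB1 share went from 63.9 and 69.6% untreated to 32.8 and 33.1% with the combination. In SUM159 the LAMB3 share was 40.8 and 37.6% untreated and 37.1 and 37.4% treated, and LAMB1, LAMB2 and LAMB3 each rose there. With these lengths LAMA5 held most of the alpha chain level in every library, from 58.4% to 87.2%. The chains that share a trimer were not level: per kb, LAMA3 was 0.235 and 0.282 times LAMB3 in untreated A549 and 0.111 and 0.114 times in the combination. These shares are of transcript, assume the length of 1 isoform per gene, and carry no test. For LAMA3 this length is 10651 bases, while the start site printed above lies inside the gene. With a shorter transcript the LAMA3 share and its ratio to LAMB3 would be higher, and the LAMA5 share lower.

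**Figure D4:**
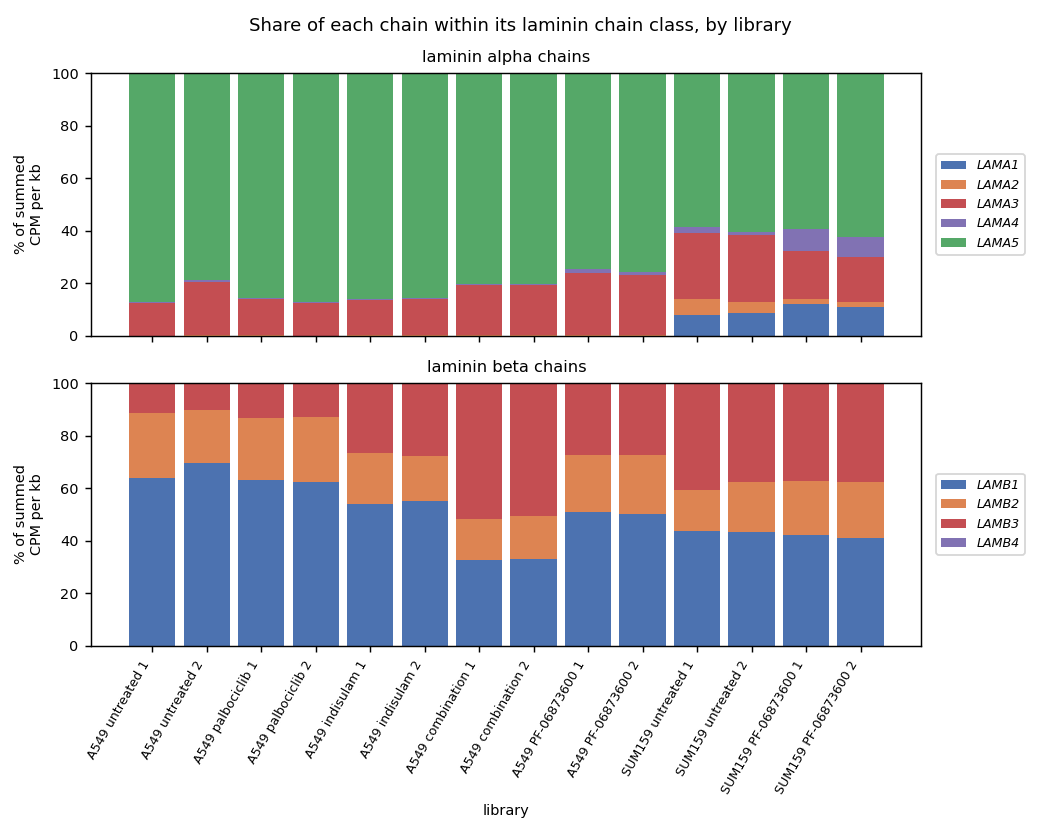
Share of each chain (percent of the summed CPM per kb of its class, vertical axis) in the 14 libraries, 1 bar per library, for alpha and beta laminin chains. LAMB3 takes 51.8 and 50.7% of the beta class in the combination libraries against 11.2 and 10.1% in untreated A549.

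Untreated, the 2 lines differed in 31 of 34 members tested. In SUM159 15 were higher, beside 41.9% of genes tested and near that share, and 16 lower, beside 36.8%. All 4 collagen receptor genes were higher in SUM159, among them ITGA10 (log2FC 3.80 ± 0.18 SE, adjusted p = 2.82e-13), as were ITGA5 (log2FC 3.43 ± 0.06 SE, adjusted p = 2.46e-19) and ITGB3 (log2FC 5.53 ± 0.21 SE). ITGB3, and ITGB6 and ITGAX below, passed the filter through groups where they are high, so no p is given for them. Lower in SUM159 were ITGB4, ITGB1 (log2FC -1.40 ± 0.07 SE, adjusted p = 1.26e-12), ITGB6 (log2FC -5.10 ± 0.23 SE), LAMB1 (log2FC -1.33 ± 0.05 SE, adjusted p = 2.3e-14) and 6 of 7 leukocyte members, among them ITGAX (log2FC -4.90 ± 0.30 SE) and ITGAL, at least 5.10-fold lower against the floor of 3 counts. Of these 6, ITGAD was not called without untreated A549 replicate 1 (adjusted p = 0.0715) or untreated SUM159 replicate 1 (0.105), and ITGAM not without untreated A549 replicate 1 (0.096). ITGB7 was not called without either of the same 2 libraries (0.229 and 0.289) or with DESeq2 (0.062). Per kb, the highest members in untreated A549 were ITGB1 (417 and 489 CPM per kb), ITGB4 (160.2 and 111), LAMB1 (135 and 132) and ITGA3 (103 and 88.2), of which ITGB4 and LAMB1 overlap. In untreated SUM159 they were ITGA3 (199.6 and 194), ITGA5 (178 and 175) and ITGB1 (178 and 166), of which ITGA5 and ITGB1 overlap. The call of LAMC1 between the lines (log2FC 0.18 ± 0.07 SE, adjusted p = 0.0273) was lost with DESeq2 (adjusted p = 0.318) and under TMM scaling (0.07, adjusted p = 0.385), which moves the median gene of this comparison by -0.11 on the log2 scale. It was also lost without untreated A549 replicate 1 (adjusted p = 0.108) and without untreated SUM159 replicate 2 (0.155).

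PF-06873600 was given to both lines at the same dose and for the same time, and the difference between their responses was tested as an interaction in the model of all 14 libraries. The response was higher in SUM159 for 20 of 34 members, beside 25.8% of genes tested, and lower for 6, beside 27.2%. Among the 20 were the 3 collagen receptor genes that fell in A549 (ITGA1, ITGA10 and ITGA11), the widely used subunits ITGB1 and ITGAV, and the chains LAMB1, LAMB2 (log2FC 1.65 ± 0.17 SE, adjusted p = 1.12e-07) and LAMC1 (log2FC 0.78 ± 0.10 SE, adjusted p = 1.49e-06). The 6 with a lower response in SUM159 were ITGA6, ITGB4 (log2FC -0.62 ± 0.16 SE, adjusted p = 0.00264), ITGA2 (log2FC -0.34 ± 0.10 SE, adjusted p = 0.00597), ITGB3 (log2FC -1.51 ± 0.34 SE), ITGAE (log2FC -0.73 ± 0.16 SE, adjusted p = 0.000835) and LAMA3. ITGB3 passed the filter through groups where it is high, so no p is given for it. For 7 members (ITGA1, ITGA10, ITGA11, ITGB5, ITGB2, LAMB1 and LAMB2) the fall in A549 and the rise in SUM159 were each called, and so was the difference. The calls of ITGA5 (log2FC 0.21 ± 0.09 SE, adjusted p = 0.0444) and LAMA5 (log2FC 0.64 ± 0.26 SE, adjusted p = 0.0468) among the 20 were lost without untreated A549 replicate 1 (0.13, adjusted p = 0.193, and 0.10, adjusted p = 0.609), as they were without several other single libraries. Those of ITGAL and ITGAD rest on groups at or near 0 counts. The fall of LAMB2 in A549 (log2FC -0.30 ± 0.11 SE, adjusted p = 0.0353) was not called without untreated A549 replicate 1 (adjusted p = 0.533), nor without either PF-06873600 library (0.145 and 0.101) or either combination library (0.054 and 0.0542).

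**Figure D5:**
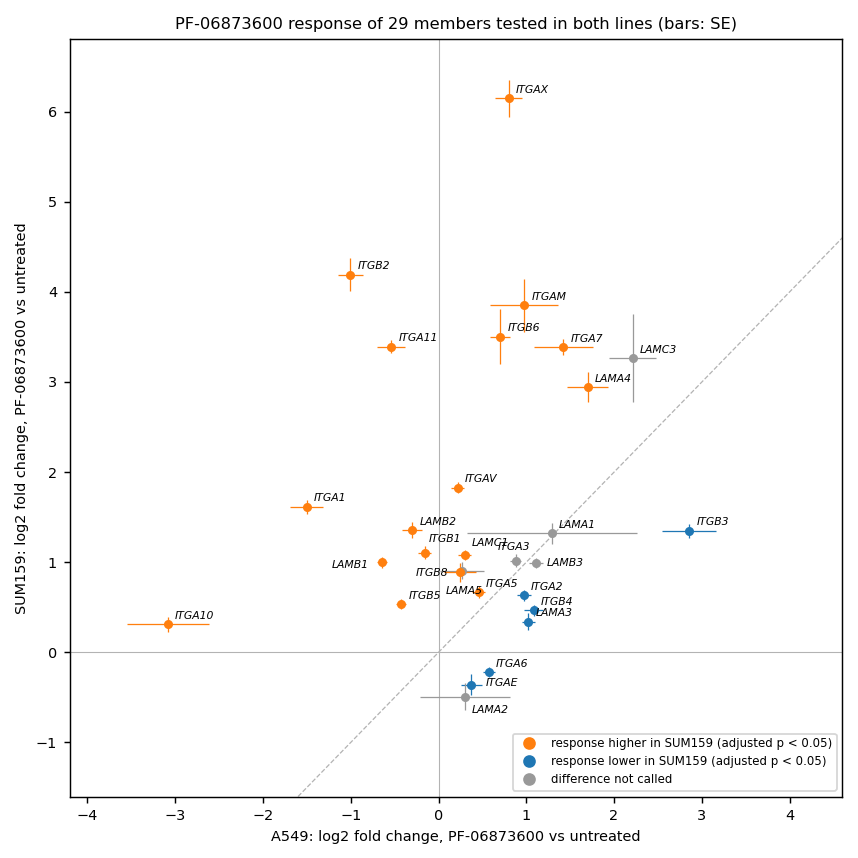
Fitted log2 fold change under PF-06873600 in A549 (horizontal axis) and in SUM159 (vertical axis) of 29 members tested in both lines, with bars of 1 SE and colours for the called difference between lines (orange, higher in SUM159, blue, lower in SUM159, grey, not called). The dashed line marks equal responses, and ITGB2 (-1.01 in A549, 4.19 in SUM159) and ITGA11 (-0.54 and 3.39) lie to the left of 0 and far above it.

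Genes of the same pathways outside the family were counted from lists drawn up with earlier results of these data known. The counts stand beside shares of all genes tested that rose of 35.1%, 28.5% and 38.1% and that fell of 30.0%, 27.8% and 35.6%, with the combination, with PF-06873600 in A549 and with PF-06873600 in SUM159. Of 19 other basement membrane components, 12 of 15 tested rose and 1 fell with the combination, 10 of 15 rose and 3 fell with PF-06873600 in A549, and 14 of 15 rose with PF-06873600 in SUM159. Their median log2 fold changes were 0.89, 0.52 and 1.53, beside 0.05, -0.01 and 0.02 over all genes tested. COL4A1, a chain of the basement membrane collagen, stood at 3.13 and 2.67 CPM in untreated A549 and 64.4 and 63.0 with the combination (log2FC 4.46 ± 0.12 SE, adjusted p = 3.75e-13), and at 29.2 and 29.1 CPM in untreated and 164 and 167 in treated SUM159. Its partner chain COL4A2 went from 14.8 and 12.5 to 153 and 172 CPM in A549 and from 55.3 and 46.8 to 182 and 184 in SUM159. PXDN, the peroxidase that crosslinks this collagen, rose from 28.1 and 24.5 to 182 and 180.0 CPM with the combination and COL18A1 from 109 and 74.9 to 473 and 470.5.

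Of 19 other integrin ligands, 13 of 17 tested rose and 3 fell with the combination, 14 of 17 rose with PF-06873600 in A549, and 11 of 14 rose and 3 fell with PF-06873600 in SUM159, with median log2 fold changes of 1.12, 0.94 and 2.00. FBN1, the fibrillin of microfibrils, went from 21.1 and 17.6 CPM in untreated A549 to 235 and 236 with the combination (log2FC 3.61 ± 0.09 SE, adjusted p = 2.2e-13). TNC, or tenascin-C, went from 4.49 and 4.33 to 50.8 and 55.1 CPM (log2FC 3.58 ± 0.11 SE, adjusted p = 1.49e-12) and TGFBI from 409.9 and 429 to 4182 and 4170.0 (log2FC 3.32 ± 0.06 SE, adjusted p = 6.26e-15). CCN1, which binds the ITGAV integrins, rose in A549 from 8.16 and 9.0 to 67.2 and 71.8 CPM and was lower in SUM159 with PF-06873600, at 275 and 269 against 334 and 323 CPM (log2FC -0.27 ± 0.06 SE, adjusted p = 0.000411).

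Of 34 integrin adaptors, the proteins that link the receptors to actin and signalling, 21 of 33 tested rose and 8 fell with the combination, 20 of 33 rose and 4 fell with PF-06873600 in A549, and 13 of 32 rose and 14 fell with PF-06873600 in SUM159. Their medians were 0.56, 0.37 and -0.05, and the counts in SUM159 were near the shares of all genes. Talin 1 (TLN1) rose with the combination by 0.51 on the log2 scale, and the 4 adaptors of the largest change at 10 CPM or more were FLNC, LIMS2, TNS1 and TNS4. TNS4, a tensin of epithelial cells, stood at 42.0 and 35.2 CPM in untreated A549, 138 and 137 with palbociclib and 181 and 169 with indisulam. With the combination TNS4 stood at 310.5 and 318 CPM (log2FC 3.02 ± 0.08 SE, adjusted p = 2.29e-13), and with PF-06873600 at 280 and 292. It fell in SUM159 from 7.66 and 9.52 to 4.09 and 4.54 CPM (log2FC -0.98 ± 0.17 SE, adjusted p = 7.86e-05). LIMS2 went from 0.952 and 1.07 to 21.8 and 20.5 CPM and FLNC from 0.612 and 0.667 to 14.1 and 17.1. Of 10 laminin receptors and hemidesmosome partners outside the integrins, 7 of 10 tested rose and 2 fell with the combination, 5 of 10 rose and 3 fell with PF-06873600 in A549, and 4 of 10 rose and 3 fell with PF-06873600 in SUM159. Their medians were 0.81, 0.08 and 0.15, and the counts in SUM159 and those that fell with PF-06873600 in A549 were near the shares of all genes. COL17A1, the collagen of the hemidesmosome, stood at 0.952 and 1.33 CPM in untreated A549, 11.96 and 12.6 with indisulam, 50.4 and 49.9 with the combination and 13.2 and 12.5 with PF-06873600 (log2FC 5.44 ± 0.14 SE, adjusted p = 3.27e-13 for the combination). In SUM159 COL17A1 was at 13.4 and 14.9 CPM untreated and 15.4 and 14.6 treated (log2FC 0.08 ± 0.11 SE, adjusted p = 0.499). CD82, a tetraspanin that associates with integrins, rose in SUM159 from 22.3 and 20.7 to 306 and 322 CPM (log2FC 3.87 ± 0.07 SE, adjusted p = 3.26e-15). PLEC rose with the combination (log2FC 1.38 ± 0.15 SE, adjusted p = 1.86e-06), to 1190 and 1215 CPM. Its 2 untreated A549 libraries stood apart, at 578 and 349 CPM, so the size of this rise depends on them. It fell in SUM159 with PF-06873600 (log2FC -0.52 ± 0.10 SE, adjusted p = 0.000175). CD151 rose with the combination and in SUM159 (log2FC 1.11 ± 0.06 SE, adjusted p = 1.55e-09 and log2FC 0.33 ± 0.06 SE, adjusted p = 0.000138).

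Summed over the 26 integrin genes, the level was 3802 and 3761 CPM in untreated A549, 5361 and 5506 with the combination, 3340.5 and 3268 in untreated SUM159 and 6396 and 6385 with PF-06873600 there. It was 4377 and 4184 CPM with palbociclib, 4314 and 4353 with indisulam and 4933 and 5024 with PF-06873600 in A549. All treated A549 libraries thus lay above the untreated ones, those of the combination highest, and the treated SUM159 libraries above the untreated ones. Within this sum ITGB4 alone went from 944 and 656 CPM in untreated A549 to 1688 and 1699 with the combination. The members that passed no filter were ITGA2B, the platelet subunit, with at most 11 counts in a library, ITGA8 with at most 3, ITGA9 with at most 11 and LAMB4 with at most 13, and they are not tested here. LAMB4 had 1 and 2 counts in untreated A549 and 8 and 13 with the combination, and ITGA9 1 and 3 in untreated SUM159 and 11 and 6 with PF-06873600. With the low-count filter left out, 23 members were called higher with the combination and 30 with PF-06873600 in SUM159.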

How the data were processed

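Polyadenylated RNA of 14 libraries was sequenced as single-end reads of 65 bases (stranded kit). The submitters' processing notes name HISAT2 (version 2.2.1), HTSeq and the GRCh38 build, and the authors deposited 1 table of raw read counts per gene for each library. The annotation release, the counting settings and the use of strand are not given in the sources used here. Of 60683 identifiers, 60370 matched GENCODE release 44, which gave names, coordinates and MANE Select lengths. Rows that name no gene stayed out of totals: reads not on a gene or ambiguous together made up 7.65 to 10.4% of the gene, no-feature and ambiguous lines. Totals ranged from 13060374 to 21149256 counts, and floors of 3 counts cover counting error only.

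Counts were scaled by library totals, the relative total size factor that the study also used, filtered with filterByExpr and tested with the quasi-likelihood test of edgeR (version 4.0.16 in R 4.3.3, limma 3.58.1) over all genes of a model: A549 (10 libraries, 15780 genes), SUM159 (4 libraries, 15055 genes) and both lines (14 libraries, 17279 genes). P-values were adjusted over all genes tested (Benjamini-Hochberg, threshold 0.05). An exact permutation test of 2 against 2 libraries cannot go below p = 0.33 and was not used. The scripts were tested on simulated data. Alternatives were TMM scaling, DESeq2 (version 1.42.0), no low-count filter, a filter at a mean of 50 counts, models with the compared groups alone, the replicate number as a block, and each library left out. Tables were handled in Python 3.11.15 with pandas 2.3.3 and numpy 2.4.6, and plots drawn with matplotlib 3.10.9.

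Members and lists were chosen with earlier results of these data known. Values in every library are given for members with a group mean of at least 10 CPM and, in at least 1 of 10 comparisons, a call with an absolute log2 fold change of at least 1 (24 members). The others are given by ranges or counts, and from each related list up to 4 genes at 10 CPM or more with the largest absolute log2 fold change in the combination. Promoters are from RefSeq (GRCh38.p14). 1 member and 1 marker gene are included in counts, medians and sums but are not reported here.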

Additional observations from a re-analysis of the deposited data

Results flagged for a closer look

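For 25 of the members described the response to PF-06873600 differed between SUM159 and A549 by the interaction term of the edgeR model of all 14 libraries. Values here are the log2 fold change in SUM159 minus that in A549, with 2 libraries per group. Of the leukocyte integrin genes, the difference was positive for ITGAX (5.34), ITGB2 (5.19), ITGAM (2.87), ITGAD (5.13) and ITGAL (7.90), where those of ITGAD and ITGAL come from groups at or near 0 counts and are fitted values that depend on the prior count, and negative for ITGAE (-0.73). Of the collagen receptor genes it was positive for ITGA11 (3.93), ITGA10 (3.40) and ITGA1 (3.12) and negative for ITGA2 (-0.34). Of the RGD receptor and common subunits it was positive for ITGB6 (2.80), ITGAV (1.61), ITGB1 (1.26), ITGB5 (0.96) and ITGA5 (0.21) and negative for ITGB3 (-1.51). Of the laminin receptors it was positive for ITGA7 (1.96) and negative for ITGA6 (-0.79) and ITGB4 (-0.62). Of the laminin chains it was positive for LAMB2 (1.65), LAMB1 (1.64), LAMA4 (1.24), LAMC1 (0.78) and LAMA5 (0.64) and negative for LAMA3 (-0.68). The differences of ITGA5, ITGA7 and LAMA5 were no longer called without untreated A549 replicate 1 (adjusted p = 0.193, 0.0738 and 0.609). The medium goes with the line and cannot be told apart from it.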

How the results depend on the processing

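The number of members called with palbociclib was 8, fell to 2 when the model held only the compared groups (over all genes 543 higher and 406 lower, against 1310 and 1168 with all A549 groups), and ranged from 3 to 10 when 1 library was left out. Over all alternatives run, the other counts stayed within 1.5 times their value, which stands in brackets: 15 to 21 for indisulam (19), 19 to 29 for the combination (26), 21 to 29 for the combination against palbociclib (29), 16 to 25 for the combination against indisulam (22), 10 to 16 for the interaction (12), 21 to 29 for PF-06873600 in A549 (27), 29 to 33 for PF-06873600 in SUM159 (31), 26 to 32 for the untreated lines (31), 22 to 27 for the line difference (26). The log2 fold change of LAMA5 with PF-06873600 in A549 turned to -0.14 without untreated replicate 2, and was 0.79 without replicate 1. Over all members, comparisons and alternatives, called values kept their call and direction in 3496 refits and lost the call in 178, while uncalled values stayed uncalled in 1523, became called in 74 and turned and became called in 1. With the replicate number as a block, members called were 8, 20, 26, 29, 24, 13, 26, 31, 31 and 26, in the order of palbociclib and those just named. Deviations of same-numbered libraries correlated between -0.379 and 0.379 over genes, so that the numbers were not taken to pair the libraries. Crossed numbers, tried after this was seen, gave 9 calls for palbociclib and 32 for the untreated lines. TMM scaling moved the median gene of the untreated lines by -0.11 on the log2 scale. The cause of these shifts was not tested. With 2 libraries per group, and 3 counts at 0.142 to 0.23 CPM, differences of members under about that level were not detectable.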
